A study of Mus musculus with 4 samples.

Results

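Imprinted genes are transcribed mainly from the allele inherited from the mother or mainly from the allele inherited from the father, according to methylation marks set in the germ line. They lie in clusters that share a control region, and many of them set growth before birth and are then switched down in most tissues. H19, a long non-coding RNA of the maternal allele, and Igf2, a growth factor gene of the paternal allele, share enhancers and a control region bound by CTCF, and the transcription factor PLAGL1 is known to act on H19, Igf2 and other imprinted growth genes.

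The 10 genes described here, H19, Igf2, Dlk1, Meg3, Peg3, Plagl1, Cdkn1c, Grb10, Mest and Ndn, were taken by symbol from a table of 34745 genes. They were chosen as imprinted growth genes around H19, because the H19 count was near 0 in WT and detectable in KO. The KO against WT values of the members are therefore given as a description with no test, and tests are given only for genes outside this set. All 10 were in the table and had at least 1 count, and 5 of them, H19, Plagl1, Cdkn1c, Grb10 and Ndn, passed the filter on low counts. H19 passed it only through its counts in KO. Plagl1 and Ndn fell short of its minimum of 10 counts in 1 WT library each, so they needed their KO counts to pass.

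Total RNA of primary mouse macrophages was sequenced in 4 libraries, 2 labelled WT and 2 labelled KO (G3bp1mac-/-), numbered 1 and 2 in each genotype. Per the study's text the cells were bone marrow-derived macrophages (BMDMs), the controls were G3bp1f/f mice with both G3bp1 alleles floxed, and the KO mice carried the same alleles with a Lyz2-Cre, which acts in monocytes, macrophages and granulocytes. G3BP1 is the RNA-binding scaffold of stress granules. The sources used here do not give the age of these mice, a treatment of these cells, whether cells of several mice were pooled, or whether the libraries of a genotype came from separate mice, so the spread between them may be technical.

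The libraries held 16724241 to 19747909 counts, and levels are given as CPM, which divides a count by the library total after scaling it by TMM, a factor that corrects for differences in RNA composition. Per gene length, levels are the deposited FPKM. At this depth 3 counts, the limit that a count of 0 allows, stood at 0.152 to 0.188 CPM (counting error only). G3bp1 had 1691 and 2875 counts in WT, against 1307 and 2296 for KO, a ratio of mean CPM of 0.656. On the log2 scale KO over WT was -0.57 and -0.63 for numbers 1 and 2, in the direction of the labels, and the libraries of the genotypes overlapped. The macrophage markers summed to 21026 to 26454 CPM in the 4 libraries, with 0 of the 9 matched markers at 0 counts. The summed markers of bone marrow stroma were higher in both KO libraries, at 182 and 248 CPM in WT against 756 and 699 CPM in KO. All 20 had counts, though Lepr had them in WT replicate 1 alone. The part of these markers in the values of the members was not tested. In bulk RNA, fewer cells of a type and less RNA per cell cannot be told apart.

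H19 carries a microRNA, miR-675, within its transcript, and the mature sequences are shown because they are the part of this RNA with a known product. In RefSeq (GRCm38.p6) the hairpin lies at chr7:142577064-142577147 on the minus strand. By the GENCODE M21 annotation it lies inside an exon of 3 of the 7 H19 transcripts. The seed, bases 2 to 8, is in capitals.
miR-675-5p: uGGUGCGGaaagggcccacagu
miR-675-3p: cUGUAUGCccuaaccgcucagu
The counts of H19 are those of the gene, and the mature microRNA was not measured here.

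H19 (ENSMUSG00000000031) lies on chromosome 7 from 142575529 to 142578143 of GRCm38, on the minus strand, with 5 exons in its longest transcript. Counting found 1 and 0 fragments of H19 for WT, against 13 and 22 for KO. The genotypes did not overlap, and the WT libraries lay under the limit that a count of 0 allows. The level was 0.0308 ± 0.0436 CPM (WT) and 0.907 ± 0.297 CPM (KO; SD, n = 2 for each). H19 was chosen on these values. With 35 counts in KO against 1 in WT the ratio was 29.4, with an exact 95% interval of 4.94 to 1193. Such intervals on the members cover counting error only and are no test of genotype. Even in KO, H19 was at a low level per gene length, 0.137 and 0.196 FPKM, and exceeded 62.7% and 65.3% of all genes in the table. No other gene in the table overlapped it.

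Igf2, which encodes the fetal growth factor IGF2, starts 88.7 kb from H19 (chromosome 7, 142650766 to 142666816, minus strand). It had 0 and 1 counts in WT, against 5 and 5 for KO. The KO libraries lay above the WT libraries, at 0.268 and 0.254 CPM, just over the limit that a count of 0 allows. The ratio of 10 counts to 1 was 8.39 (exact 95% interval 1.19 to 364). Gene-level counts do not tell the parental alleles apart, so whether the H19 and Igf2 reads came from the usual alleles was not measured.

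**Figure D1:**
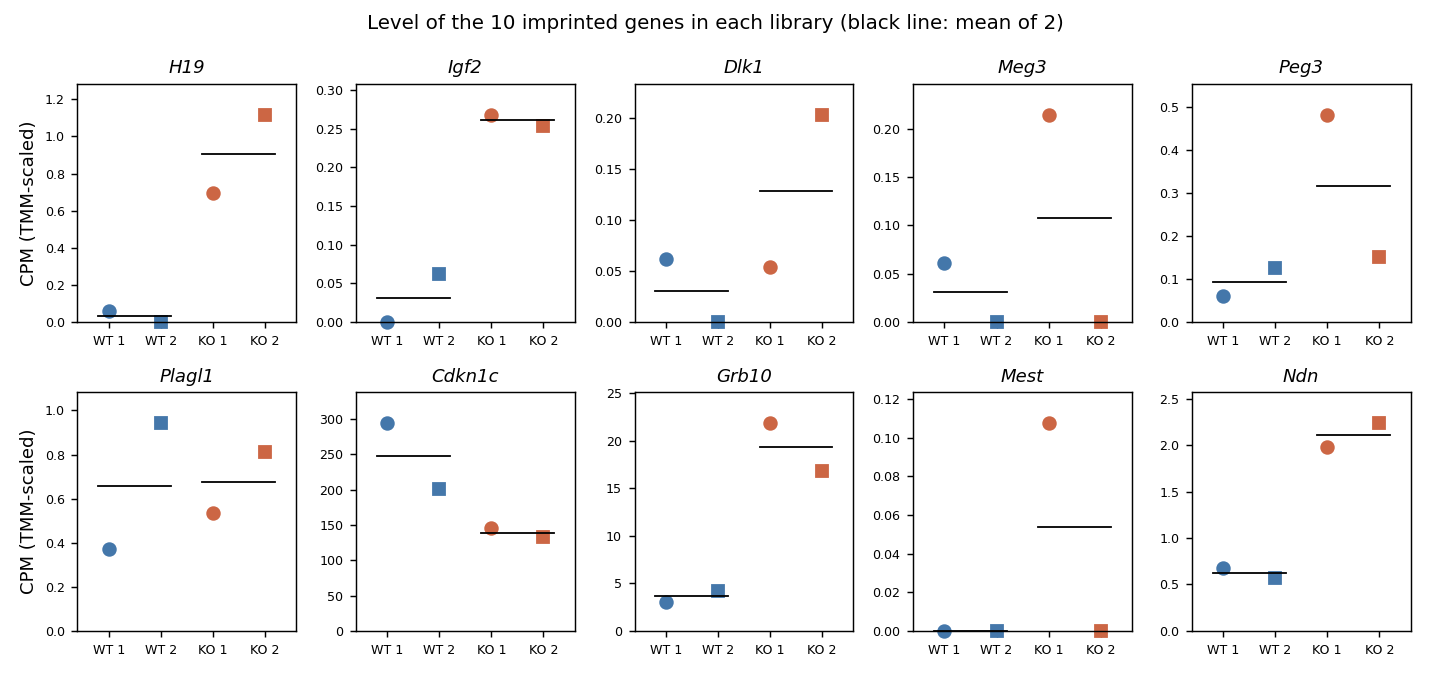
Each panel plots the level of a member in TMM-scaled CPM (vertical axis, from 0, with its own scale) in the 4 libraries, WT in blue and KO in orange, circles for replicate number 1, squares for number 2, and black lines for the mean of 2 libraries. The KO points of H19, Igf2, Peg3, Grb10 and Ndn lie above both WT points, and those of Cdkn1c lie below, at 146 and 132 CPM against 294 and 202 CPM.

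Cdkn1c was the only member expressed at a high level in these macrophages. It encodes a cyclin-dependent kinase inhibitor that restrains the cell cycle, is normally read from the maternal allele, and starts 882.9 kb from H19 on the same chromosome (143458350 to 143461050, minus strand). It had 4770 and 3214 counts in WT, against 2725 and 2609 for KO. Both KO libraries lay below both WT libraries, in the direction opposite to H19. The level was 248 ± 65.3 CPM (WT) and 139 ± 9.67 CPM (KO; SD, n = 2 for each), 1.78-fold lower in KO. Within replicate number 1 KO over WT was -1.01 on the log2 scale, against -0.61 within number 2. Among all genes tested, 8.14% were at least 1.5-fold lower in KO by mean CPM.

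Grb10 encodes an adaptor that binds the insulin and IGF1 receptors and restrains their signal, and outside the brain it is read mainly from the maternal allele. It lies on chromosome 11 from 11930508 to 12038683, on the minus strand, with 17 exons in its longest transcript. Grb10 had 50 and 67 counts in WT, against 407 and 331 for KO. The genotypes were far apart relative to the spread within each, with 3.64 ± 0.793 CPM (WT) and 19.3 ± 3.55 CPM (KO; SD, n = 2 for each), a ratio of 5.30. On the log2 scale KO over WT was 2.81 for replicate number 1 and 1.99 for number 2. A mean CPM at least 4-fold higher in KO was found for 1.74% of the genes tested.

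Ndn, a gene of the Prader-Willi region on chromosome 7 (62348277 to 62349928, plus strand), encodes necdin, a MAGE family protein that slows growth in neurons and other cells and is read from the paternal allele. Its counts were 11 and 9 in WT and 37 and 44 in KO. The KO libraries lay above the WT libraries, at 2.11 ± 0.177 CPM against 0.621 ± 0.0801 CPM (SD, n = 2 each), a ratio of 3.40. For replicate numbers 1 and 2 the log2 ratios were 1.51 and 1.92. A mean CPM at least 2-fold higher in KO was found for 5.36% of the genes tested.

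Grb10 and Ndn are the protein-coding members with the clearest higher level in KO, and their promoter windows are shown for that reason. Each window holds 300 bases around an annotated start (RefSeq, GRCm38.p6), and 8 of the 10 members matched, all but H19 and Cdkn1c. The capitals mark the letters TGCCGC or, on the other strand, GCGGCA, the sequence read by ZFP57, a zinc finger protein that keeps methylation at imprinted control regions.
Grb10, chr11:12037371-12037670, minus strand: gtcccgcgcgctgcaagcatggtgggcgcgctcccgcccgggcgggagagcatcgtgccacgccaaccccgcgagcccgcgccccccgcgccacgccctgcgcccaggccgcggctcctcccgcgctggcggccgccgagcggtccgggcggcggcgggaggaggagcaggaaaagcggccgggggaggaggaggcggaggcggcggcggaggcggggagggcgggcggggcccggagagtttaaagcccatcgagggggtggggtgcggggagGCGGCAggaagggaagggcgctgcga
Ndn, chr7:62348027-62348326, plus strand: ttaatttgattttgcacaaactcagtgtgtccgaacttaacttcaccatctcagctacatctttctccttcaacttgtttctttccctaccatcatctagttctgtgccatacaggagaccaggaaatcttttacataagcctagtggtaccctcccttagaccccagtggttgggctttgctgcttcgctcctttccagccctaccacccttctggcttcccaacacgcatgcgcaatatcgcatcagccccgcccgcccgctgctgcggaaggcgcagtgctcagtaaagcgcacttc

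The Grb10 window held 45 CG dinucleotides, more than 98.1% of all windows, and the Ndn window held 11, where the median window held 7. The letters TGCCGC were in 6 of the 15 windows of members, for 5 of 8 genes (Grb10, Igf2, Meg3, Mest and Plagl1), against 11.6% of all 32851 windows. Several windows belong to the same gene, and the count is a description. The letters GGGGCCCC, a sequence that PLAGL1 binds, were in the window of Peg3 and in 1.08% of all windows. A match is not a binding site, and the second annotated Grb10 start held neither.

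Plagl1, the transcription factor gene of the network on chromosome 10 (13060504 to 13131694, plus strand), had 6 and 15 counts in WT, against 10 and 16 for KO. The libraries overlapped, and the means were 0.655 ± 0.404 CPM (WT) and 0.674 ± 0.195 CPM (KO; SD, n = 2 for each). The log2 ratio had opposite signs within the replicate numbers, 0.49 and -0.21. Peg3, a zinc finger transcription factor of the paternal allele (chromosome 7, 6703892 to 6730421, minus strand), had 1 and 2 counts in WT, against 9 and 3 for KO. The second KO library exceeded the WT libraries by a single count, and the ratio of 12 to 3 counts was 3.36 (exact 95% interval 0.906 to 18.5).

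The starts of Dlk1 and Meg3 lie 88.2 kb apart on chromosome 12, both on the plus strand (109452823 to 109463336 and 109541001 to 109571726). Dlk1 encodes a transmembrane protein of the paternal allele that holds back differentiation, and Meg3 is a long non-coding RNA of the maternal allele. Dlk1 had 1 and 0 counts in WT, against 1 and 4 for KO. Meg3 had 1 and 0 counts in WT, against 4 and 0 for KO. In both genes a KO library lay within the WT range, and the exact 95% intervals of the ratios were 0.470 to 198 for Dlk1 and 0.332 to 165 for Meg3. Mest, a hydrolase-like gene of the paternal allele (chromosome 6, 30723547 to 30748465, plus strand), had 2 counts in KO replicate 1 and 0 in each other library. It is overlapped on the opposite strand by Copg2, which had 769 and 590 counts in WT, against 1071 and 706 for KO, and whether counting used the strand is not given in the sources used here.

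Over the set, 4 members exceeded 3 counts in each WT library, 8 did in KO replicate 1 and 7 in KO replicate 2. Among all genes the share over 3 counts differed less, from 38.0% to 39.9% across the libraries. Of the 10 members, 5 had both KO libraries above both WT libraries (H19, Igf2, Peg3, Grb10 and Ndn) and 1 had both below (Cdkn1c), where 20% and 16.9% of the genes tested did so. Igf2 and Peg3 did not pass the filter that defines the genes tested, and among the 5 members that passed it the counts were 3 and 1. The members were chosen from this contrast, and nothing is read from these counts.

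Per gene length the order of levels was set by Cdkn1c. In WT it stood at 83.6 ± 22.8 FPKM, above 98.6% and 98.0% of all genes, followed by Ndn at 0.357 ± 0.0493, Grb10 at 0.342 ± 0.0713 and Plagl1 at 0.0383 ± 0.0233 FPKM (SD, n = 2 each). Ndn and Grb10 did not differ beyond their spread in WT. The other 6 members were at 0.00554 FPKM or lower. In KO the order was Cdkn1c at 52.4 ± 7.74 FPKM, Grb10 at 2.03 ± 0.530, Ndn at 1.34 ± 0.00671, H19 at 0.166 ± 0.0419 and Plagl1 at 0.0436 ± 0.00929 FPKM. The libraries of these neighbours did not overlap in KO. Peg3 and Igf2, at 0.0216 ± 0.0171 and 0.0210 ± 0.00246 FPKM, did not differ beyond their spread. Mest, Dlk1 and Meg3 came last, at 0.00845, 0.00781 and 0.00470 FPKM, each resting on 5 counts or fewer.

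The neighbours of H19 were examined to see whether the region as a whole was higher in KO. Of 55 genes that start within 1 Mb of it, 15 were tested, with a median log2 fold change of -0.22 and a range of -0.83 to 0.57, where the median over all genes tested was 0.04. Of the 15, 1 (Cd81) had non-overlapping libraries with KO higher and 6 with KO lower, against 20% and 16.9% of all genes tested. Cdkn1c is itself among these 15 genes and has the lowest value. Igf2, too low to be tested, is not among the 15 and stood at 3.26 and 1.57 on the log2 scale within the numbers.

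**Figure D2:**
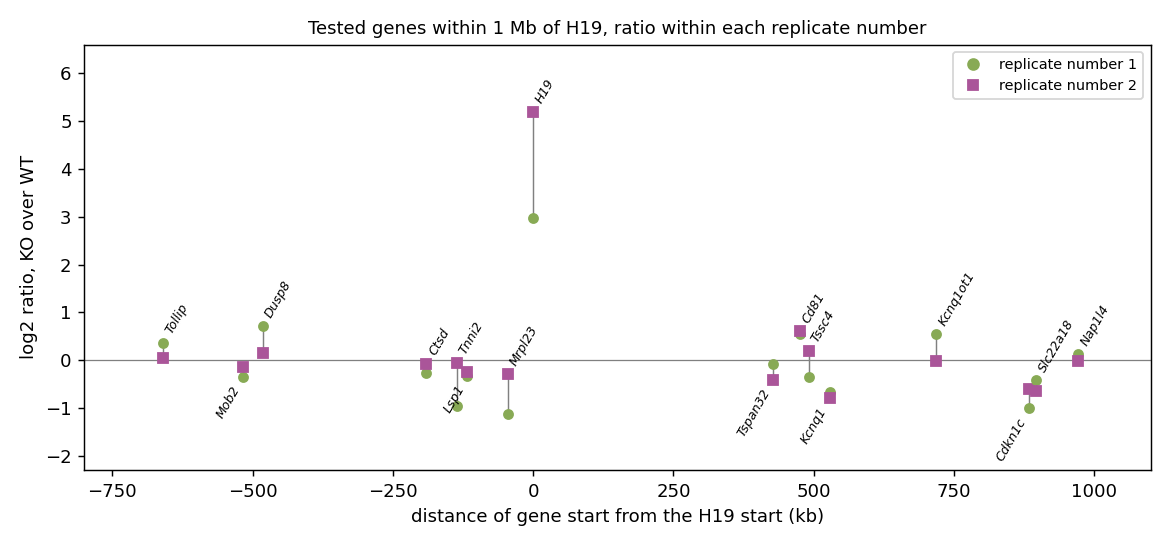
Log2 ratio of KO to WT (vertical axis, 0.5 counts added) within replicate number 1 (circles) and number 2 (squares) for H19 and the 15 tested genes within 1 Mb, against the distance of each gene's start from the H19 start in kb, positive towards higher coordinates. H19 stands at 2.97 and 5.19, while the median fitted log2 fold change of the 15 neighbours is -0.22.

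The next comparison asked whether other genes of the members' clusters, a list of 32 genes of which 31 were matched, differed between the genotypes. Of these, 12 passed the filter, and 7 had no count in any library, among them Phlda2, Rtl1, Usp29 and Magel2. The median log2 fold change of the 12 was 0.10, with 7 above 0, where 54.6% of all genes tested were. The quasi-likelihood test of edgeR called 0% of the 12418 genes tested at an adjusted p of 0.05 and a 2-fold change, and 0 of these 12. An unadjusted p under 0.05 was found for 2, both higher in KO, where 4.64% of all genes tested were higher and 1.99% lower by that rule. The edgeR exact test and the DESeq2 Wald test also called 0 of the 12, and the fit with a term for the replicate number called 1, Rian, where it called 3.98% of all genes higher and 1.37% lower. Rian, a non-coding RNA downstream of Meg3 in the Dlk1-Meg3 cluster, had 8 and 8 counts in WT, against 30 and 32 for KO. With WT counts under the filter's minimum of 10, Rian was tested only because of its counts in KO. Its KO libraries lay above its WT libraries, by 1.69 on the log2 scale (SE 0.44, adjusted p in edgeR 0.408) and by 1.64 and 1.63 within replicate numbers 1 and 2. Osbpl5 (0.85, SE 0.55, adjusted p in edgeR 0.904) and Cd81 (0.57, SE 0.21, adjusted p in edgeR 0.680), a tetraspanin gene, also had KO libraries above WT libraries. The potassium channel gene Kcnq1 (-0.73, SE 0.38, adjusted p in edgeR 0.853) and the transporter gene Slc22a18 (-0.52, SE 0.33, adjusted p in edgeR 0.904) had both KO libraries below both WT libraries. Within 1 Mb of Cdkn1c, 17 genes were tested, with a median log2 fold change of 0.10, 3 with both KO libraries above (H19, Cd81 and Osbpl5) and 3 with both below the WT libraries, where 20% and 16.9% of all genes tested did. H19, a member chosen on these values, is counted in that median and among the 3 above. Kcnq1 contains the antisense RNA gene Kcnq1ot1, and without strand their reads cannot be told apart. Nap1l4, the most abundant gene of the list, had 1361 and 1697 counts in WT, against 1711 and 2065 for KO, with overlapping CPM. Ddc, which adjoins Grb10 and was named after its values were seen, had 1 and 0 counts in WT, against 9 and 10 for KO and was too low to be tested.

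Imprinted genes outside these clusters were spread to both sides of 0. Of 35 genes listed, 24 were tested, and their median log2 fold change was 0.17 with 17 above 0, where 54.6% of all genes tested were. The quasi-likelihood test of edgeR called 0 of the 24, and 4 had an unadjusted p under 0.05, all higher in KO (4.64% of all genes tested). The DESeq2 Wald test called 2 of them, Slc38a4 and Dcn, where it called 1.1% of all genes higher and 0.362% lower. The edgeR exact test called Slc38a4 alone, where it called 1.16% higher and 0.242% lower. The fit with a replicate term called 3, Slc38a4, Dcn and Nnat, where it called 3.98% of all genes higher and 1.37% lower. Slc38a4, an amino acid transporter gene, had 7 and 9 counts in WT, against 58 and 53 for KO, 2.53 as log2 fold change (SE 0.43, adjusted p in edgeR 0.250). Nnat, a neuronal membrane protein gene, had 1 and 4 counts in WT, against 16 and 16 for KO (2.37, SE 0.74, adjusted p in edgeR 0.558). Slc38a4 and Nnat were under the filter's minimum of 10 counts in both WT libraries, so they passed it only through KO. Dcn encodes decorin, a matrix proteoglycan, and is also in the list of stromal markers. It had 658 and 666 counts in WT, against 2224 and 2504 for KO (1.58, SE 0.22, adjusted p in edgeR 0.216).

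In the other direction, Commd1 (-0.61, SE 0.30), Airn (-0.52, SE 0.32) and Pon2 (-0.29, SE 0.23) had both KO libraries below both WT libraries, with adjusted p in edgeR of 0.848, 0.899 and 0.939. Airn is the non-coding RNA that silences the paternal Igf2r allele and overlaps Igf2r, so their reads may be shared if counting ignored the strand. In all, 5 of the 24 genes had both KO libraries above and 5 had both below the WT libraries, where 20% and 16.9% of all genes tested did.

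Genes that set or keep imprints had a median log2 fold change of 0.30 over 17 tested genes of 20, with 13 above 0, where 54.6% of all genes tested were. The median was 0.42 within replicate number 1 and 0.03 within number 2. The quasi-likelihood test of edgeR called 0 of the 17, as did the exact and Wald tests. Only 1, Uhrf1, had an unadjusted p under 0.05 (4.64% of all genes tested were higher by that rule). It was called with the replicate term (3.98% higher). Uhrf1, which brings the maintenance methyltransferase to newly copied DNA, had 41 and 67 counts in WT, against 128 and 141 for KO (1.06, SE 0.36, adjusted p in edgeR 0.653). Hells, a chromatin remodeller needed for DNA methylation (0.64, SE 0.30, adjusted p in edgeR 0.842), and Trim28, the corepressor that ZFP57 recruits (0.45, SE 0.22, adjusted p in edgeR 0.846), had KO libraries above WT libraries. Of the 17 genes, 6 had both KO libraries above both WT libraries and 0 had both below, where 20% and 16.9% of all genes tested did. Dnmt3a and Dnmt1, DNA methyltransferase genes and the most abundant of the list, stood at -0.34 (SE 0.34, adjusted p in edgeR 0.957) and 0.27 (SE 0.44, adjusted p in edgeR 0.971), with overlapping libraries.

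Genes of IGF signalling were compared beside Igf2, among them Igf1, IGF receptors, IGF-binding proteins, the receptor adaptors Irs1 and Irs2 and the IGF2 mRNA-binding proteins. Of 15 genes listed, 9 were tested, all 9 with a log2 fold change above 0, where 54.6% of all genes tested were, and a median of 0.75 (0.91 within number 1, 0.74 within number 2). By the quasi-likelihood test of edgeR 0 of the 9 were called, and 4 had an unadjusted p under 0.05, all higher in KO (4.64% of all genes tested). By the exact test of edgeR 2 were called, Igfbp3 and Igfbp4, both higher (1.16% of all genes tested), and the DESeq2 Wald test called the same 2 (1.1%). With the replicate term 4 were called higher, Igfbp3, Igfbp4, Igfbp6 and Igfbp7 (3.98%). Igfbp3, which carries IGFs in serum, had 10 and 3 counts in WT, against 105 and 63 for KO (3.43, SE 0.66, adjusted p in edgeR 0.276). It passed the filter only through its counts in KO. Igfbp4, which holds IGFs from their receptor, had 178 and 137 counts in WT, against 628 and 515 for KO (1.61, SE 0.27, adjusted p in edgeR 0.250). Igfbp6, which prefers IGF2, stood at 1.18 (SE 0.36, adjusted p in edgeR 0.544) and Igfbp7 at 1.05 (SE 0.24, adjusted p in edgeR 0.342). Igf1, the main IGF transcript of these macrophages at 19.4 ± 0.220 FPKM in WT (SD, n = 2) against 0.00224 FPKM for Igf2, stood at 0.19 (SE 0.23, adjusted p in edgeR 0.964).

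**Figure D3:**
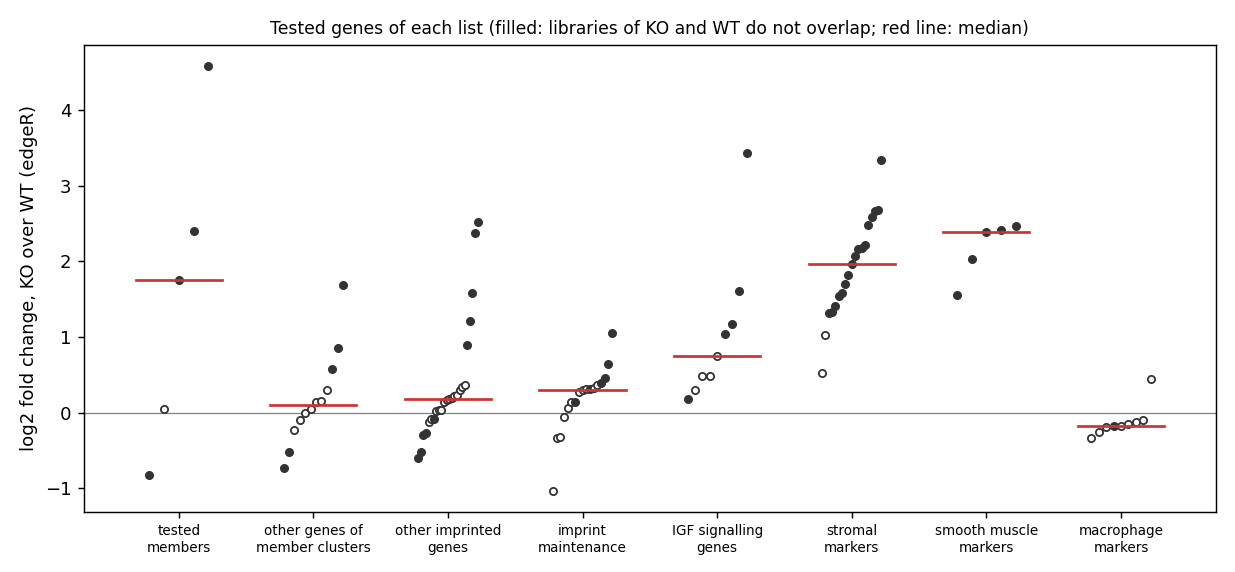
Log2 fold change of KO over WT from edgeR (vertical axis) for each tested gene of the members, of 4 imprinted and IGF gene lists and of 3 cell type lists, with filled points where the libraries of the genotypes do not overlap and red lines for the medians. The medians are 0.10, 0.17, 0.30 and 0.75 for the 4 gene lists, 1.97 for stromal, 2.39 for smooth muscle and -0.18 for macrophage markers.

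Genes whose profile over the 4 libraries was nearest to that of H19 were found by the distance between log2 CPM profiles centred on their mean. The nearest was Fmod, which encodes fibromodulin, a matrix proteoglycan, with 1 and 0 counts in WT, against 13 and 18 for KO (distance 0.244 log2 units). Vit, Sez6l, Mark1 and Abat followed at distances of 0.729 to 0.887. Each of these 5 genes had at most 3 counts in any WT library and 12 or more in each KO library, so that the likeness over 4 libraries is that of low counts.

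The stromal markers were examined beside the members, of which H19, Igf2, Peg3, Grb10 and Ndn had both KO libraries above both WT libraries. A direction shared with these members is fixed by that choice, and nothing is read from it. Cdkn1c had both KO libraries below both WT libraries, and the remaining members overlapped. Of the 20 stromal genes 19 were tested, all 19 with a log2 fold change above 0, and 17 had both KO libraries above both WT libraries, where 20% of all genes tested did. The quasi-likelihood test of edgeR called 0 of the 19. Lepr, too low to be tested, had 3 and 0 counts in WT and 0 in each KO library. The sum of the 20 was 215 ± 46.8 CPM (WT) and 727 ± 40.3 CPM (KO; SD, n = 2 for each), a ratio of 3.38. Dcn, Sparc and Fn1, matrix genes, were the most abundant stromal markers, and Sparc had 444 and 429 counts in WT, against 2458 and 2393 for KO. The smooth muscle list, led by Acta2, Des and Tagln, summed to 12.0 and 12.8 CPM in WT and 52.9 and 58.1 CPM in KO, a ratio of 4.48. Of its 8 genes 5 were tested, and Cnn1 and Actg2 did not exceed 3 counts in any library. The endothelial sum was 37.5 to 43.3 CPM in WT and 48.5 to 69.8 CPM in KO, with Tek and Emcn at 0 in every library. Of these markers Vwf alone, at a mean of 23.2 CPM in WT and 42.1 in KO, had non-overlapping libraries, and Pecam1 (0.810 and 0.526) and Cdh5 (0.655 and 0.389) overlapped. The sum of stem and progenitor markers overlapped between genotypes, at 35.5 and 49.4 CPM in WT and 33.3 and 44.3 CPM in KO. Procr held most of it, at a mean of 35.2 CPM in WT and 24.9 in KO, while Cd34 (3.11 and 8.90), Meis1 (0.991 and 2.41) and Gata2 (0.187 and 0.443) had both KO libraries above both WT libraries. Flt3 (0.497 and 0.389) had both below, and Kit (2.34 and 1.58) overlapped.

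**Figure D4:**
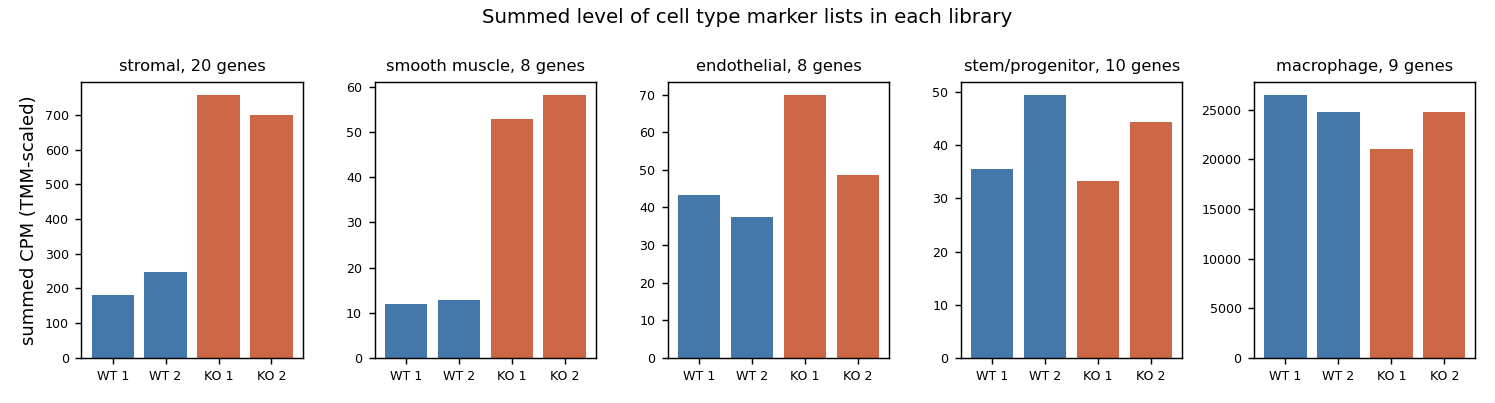
Summed TMM-scaled CPM (vertical axis, from 0) of 5 marker lists in each library, WT in blue and KO in orange. The stromal bars stand at 182 and 248 CPM in WT and 756 and 699 CPM in KO, while the stem and progenitor bars overlap.

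The summed markers of 4 blood cell lists were lower in both KO libraries, and the sum of a dendritic list was higher. The erythroid sum was 12.1 and 8.40 CPM in WT and 2.04 and 3.1 CPM in KO, the mast cell and basophil sum was 80.6 and 75.0 against 32.7 and 40.0 CPM with Mcpt8 at 0, the neutrophil sum was 34.5 and 33.9 against 21.5 and 24.7 CPM with Elane and Mpo at 0, of which S100a8 (mean 14.8 and 8.87 CPM) and S100a9 (5.37 and 0.0790 CPM) were lower in both KO libraries and Mmp8 (11.8 and 13.1 CPM) higher, and the lymphoid sum was 22.5 and 23.3 against 12.0 and 11.1 CPM. The dendritic sum was 270 and 383 CPM in WT and 393 and 425 CPM in KO, and Itgax, which macrophages also express, held nearly all of it at a mean of 320.5 CPM in WT and 402.7 in KO. Of the 4 dendritic genes tested, 3 had a log2 fold change above 0, and 1 had both KO libraries above and 1 both below the WT libraries, where 20% and 16.9% of all genes tested did. Single markers at levels above 0 in the endothelial, progenitor, neutrophil and dendritic lists were picked with their values known. The part of any of these cell types in the levels of the members was not tested.

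The members were also set against the stromal sum, as a description of the values they were chosen on. Ndn stood at 0.373% and 0.228% of the summed stromal CPM in WT and at 0.262% and 0.320% in KO, so that the genotypes overlapped. Grb10 stood at 1.69% in each WT library and at 2.89% and 2.40% in KO, and H19 at 0.0339% and 0% in WT and 0.0922% and 0.160% in KO, the WT share resting on 1 count. Igf2 stood at 0% and 0.0253% in WT and 0.0355% and 0.0363% in KO. Peg3 overlapped, at 0.0339% and 0.0506% in WT and 0.0638% and 0.0218% in KO. Relative to these markers Cdkn1c was lower in KO, at 162% and 81.2% of the summed stromal CPM in WT and 19.3% and 18.9% in KO. Its own CPM was 1.78-fold lower in KO, and the denominator was 3.38-fold higher. Plagl1, whose own CPM overlapped between genotypes, stood at 0.203% and 0.379% in WT and 0.0709% and 0.116% in KO, where the denominator was 3.38-fold higher.

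**Figure D5:**
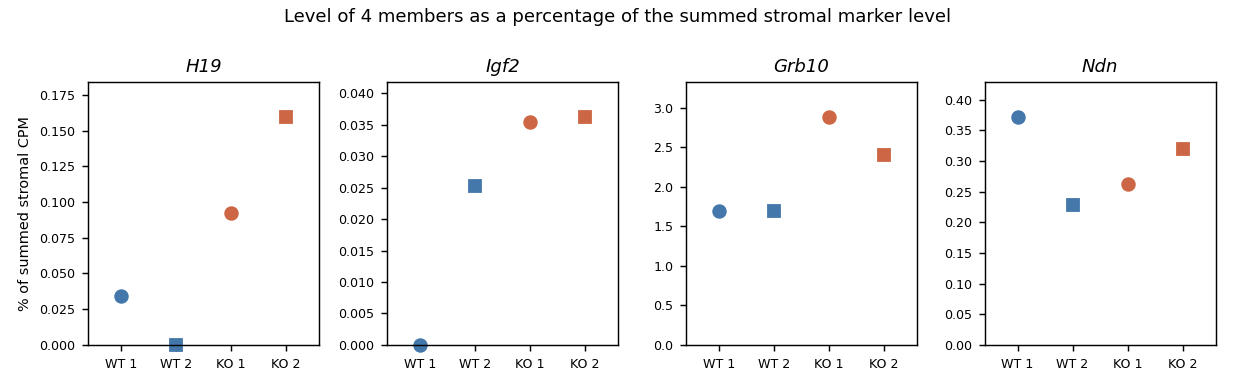
Level of H19, Igf2, Grb10 and Ndn as a percentage of the summed stromal marker CPM (vertical axes, from 0, each with its own scale) in each library, WT in blue and KO in orange. The KO points of Ndn, 0.262% and 0.320%, lie between its WT points, and those of Grb10 lie above its WT points at 1.69%.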

How the data were processed

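RNA was measured in 4 libraries, 2 labelled WT and 2 labelled KO. Per the study's methods, the authors filtered reads with Seqtk, aligned them with HISAT2 2.0.4 and counted fragments per gene with StringTie 1.3.3b. The deposited counts are whole numbers without normalization, and the FPKM deposited beside them are scaled by gene length and library size. The submitters' notes name mm39, but 27776 of the 34344 identifiers shared with GENCODE M21 match it in both coordinates on GRCm38, and the positions printed are the table's own on that build.

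Counts were analysed with edgeR 4.0.16 in R 4.3.3. Of 17991 genes with any count, filterByExpr (minimum count 10, total 15) left 12418. It keeps a gene that reaches the minimum in 2 libraries, so a gene low in WT can pass through KO alone. Libraries were scaled by TMM, and genotype was tested in all 4 libraries with the quasi-likelihood test, two-sided, with Benjamini-Hochberg adjustment, at an adjusted p under 0.05 and a 2-fold change. The fit was tested on simulated data. The members and gene lists were chosen with earlier results of these data known. From the lists, up to 3 tested genes in each direction by fold change with non-overlapping libraries and the 2 most abundant were named, with the 5 genes nearest to H19, the 3 most abundant stromal and smooth muscle markers and markers at 0. Some markers at 0 are not reported here. No pair of libraries was a duplicate: the chi-square of their counts, divided by its degrees of freedom, was 21.6 to 118. Alternatives were DESeq2 1.42.0 size factors and Wald test, the edgeR exact test, other filters, a replicate term, each library left out, and limma 3.58.1 on log2(FPKM + 1).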

Additional observations from a re-analysis of the deposited data

How the results depend on the processing

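With the replicate block, a term for the replicate number, 664 genes were called (494 higher, 170 lower), among them 1 of the other cluster genes (Rian), 3 of the other imprinted genes (Slc38a4, Nnat and Dcn), 1 imprint maintenance gene (Uhrf1) and 4 of the IGF genes (Igfbp3, Igfbp4, Igfbp6 and Igfbp7), all higher in KO, where 3.98% of all genes were called higher. Rian, Slc38a4, Nnat and Igfbp3 passed the filter only through their counts in KO. The labels do not say that a number marks a shared mouse or day, and deviations of same-numbered libraries correlated at 0.691 across genes. The DESeq2 Wald test called 181 genes, with 2 other imprinted and 2 IGF genes, and the edgeR exact test called 174, with 1 and 2. Without a library, 0 to 1 genes were called, and the lone library of a genotype was assumed to vary like the others. The median of the IGF list was 0.87 to 1.13 (without KO replicate 1) without a library and 0.38 in limma on log2(FPKM + 1), a scale that understates low genes, and that of the other imprinted genes was 0.042 (without KO replicate 1) to 0.19 without a library. Without a library the median of the other cluster genes was 0.035 (without KO replicate 2) to 0.24 (without WT replicate 2; 0.050 without WT replicate 1), and that of the imprint maintenance genes was 0.14 (without KO replicate 1) to 0.44 (0.20 without WT replicate 1). Over these alternatives 44 of 44 list medians stayed above 0. They are refits of the same 4 libraries, and the median over all genes tested was itself 0.04. Within replicate numbers 1 and 2 the median was 0.31 and -0.02 for the other cluster genes. For the other imprinted genes it was 0.20 and 0.02. Without a library H19 ranged from 3.71 (without WT replicate 2) to 7.05 (without WT replicate 1), and limma on log2(FPKM + 1) gave 0.21 for H19, 1.17 for Grb10 and 0.79 for Ndn. H19 had no value without KO replicate 2 or at a mean CPM of at least 1, where it did not pass the filter. Cdkn1c ranged from -1.11 to -0.53 without a library, and Plagl1 from -0.47 to 0.82. Depth limited Igf2, Dlk1, Meg3, Peg3 and Mest, which had at most 12 counts per genotype.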
